A study of Mus musculus with 6 samples.

Results

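Elane, Mpo, Prtn3 and Ctsg, 4 of the 23284 genes in the files, encode the main proteins of the azurophil granule, the first granule that a developing neutrophil fills. They were chosen by symbol, with their levels in these libraries already known, so their own levels are given below as descriptions with no test. RNA was measured in C1498 cells, a mouse acute myeloid leukemia (AML) line made to express EGFP by a retrovirus and transferred intravenously into young adult mice of the strain C57BL/6J, which the methods give as female in general. The cells were sorted from bone marrow on day 21 after transfer as GFP+ CD49b+ cells, from 3 cytarabine-treated mice and 3 control mice, with 1 library per mouse, named cytarabine 1 to 3 and control 1 to 3. Cytarabine is a nucleoside analogue that stops DNA synthesis. The controls are called untreated in part of the records and PBS in another part, and all 6 mice carried the same line, so that every leukemia cell came from 1 cell line in a host that kept its own blood cells.

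Azurophil granule genes are transcribed for a short time, in early granulocyte precursors that include promyelocytes and still divide. Elane (neutrophil elastase), Prtn3 (proteinase 3) and Ctsg (cathepsin G) are serine proteases that are stored active, bound to proteoglycan, and Mpo (myeloperoxidase) makes hypochlorous acid from hydrogen peroxide and chloride. As the cell matures, these genes are shut off and the genes of later granules, such as lactoferrin (Ltf), Camp and gelatinase, are turned on, while the azurophil proteins themselves stay in the granules. The transcription factors PU.1, MYB, C/EBP and RUNX1 are known to drive the early genes.

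The genes lie at 3 places in the GRCm38 build, by the GENCODE annotation. Elane (chr10:79886247-79888215, plus strand) and Prtn3 (chr10:79874476-79883174, plus strand) are neighbours, with 3072 bases between them. Mpo (chr11:87793581-87804413, plus strand) and Ctsg (chr14:56099881-56102574, minus strand) each stand apart from the other 3. The sequence before the RefSeq start of each gene is given here, because the 4 genes moved together across libraries although they lie on 3 chromosomes. It was cut from the 250 bases before the start (GRCm38.p6), without any stretch that a GENCODE exon of the same gene covers, and runs 5′ to 3′ on the strand of the gene. Capitals mark GAGGAA, the core of many PU.1 sites, and the MYB core (CAACNG or TAACNG), each searched on both strands. The Elane stretch is chr10:79886062-79886246, the Mpo stretch chr11:87793534-87793580, the Prtn3 stretch chr10:79879417-79879613, which falls within the longer GENCODE extent of Prtn3, and the Ctsg stretch chr14:56102575-56102824.
Elane: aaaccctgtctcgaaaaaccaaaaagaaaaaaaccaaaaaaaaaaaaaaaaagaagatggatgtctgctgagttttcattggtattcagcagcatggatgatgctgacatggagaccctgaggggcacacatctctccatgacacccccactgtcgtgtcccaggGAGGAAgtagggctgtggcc
Mpo: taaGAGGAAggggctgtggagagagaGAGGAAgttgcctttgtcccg
Prtn3: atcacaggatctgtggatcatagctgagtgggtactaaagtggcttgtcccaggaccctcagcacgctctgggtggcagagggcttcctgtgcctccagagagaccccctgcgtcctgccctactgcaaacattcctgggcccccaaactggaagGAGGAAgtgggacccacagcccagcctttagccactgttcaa
Ctsg: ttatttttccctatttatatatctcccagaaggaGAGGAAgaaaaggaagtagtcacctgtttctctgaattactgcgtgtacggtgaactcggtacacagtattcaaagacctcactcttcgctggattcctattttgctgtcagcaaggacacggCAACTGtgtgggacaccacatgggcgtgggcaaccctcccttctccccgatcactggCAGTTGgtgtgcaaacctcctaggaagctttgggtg
Each of the 4 stretches held GAGGAA on the strand of the gene, starting at base -85 for Elane, -247 and -224 for Mpo, -95 for Prtn3 and -216 for Ctsg, counted from the start. Of 32817 promoters of the same length in the RefSeq table, 23.3% held GAGGAA on either strand. All 4 promoters also held a MYB core, which 43.1% of all promoters did. In Ctsg these lie at -93 and, on the opposite strand, at -36, both in capitals above, whereas those of Elane (-51 and -20), Mpo (-166) and Prtn3 (-56) lie outside the stretches shown. The C/EBP letters TTNCGNAA, which 2.04% of promoters held, were in none of the 4 windows, and the RUNX letters TGNGGT, which 40.1% held, were in that of Ctsg only. None of the matches overlapped another. The motifs were picked after the sequences had been seen, and a match is a description of letters, not of binding.

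The values are FPKM, read numbers scaled to transcript length and to the mapped reads of the library, so levels can be compared between genes. FPKM carries no counts, and each depth was read from the spacing of low values, which gave 11500000 to 18880000 reads per library. The libraries differed beyond their groups. Colon epithelium transcripts were abundant in cytarabine 2, cytarabine 3 and control 1, where the goblet cell lectin gene Zg16 had 1948, 2207 and 1049 FPKM, and lower in cytarabine 1, control 2 and control 3, at 137, 9.58 and 9.49 FPKM. Differences of the members are therefore also given within each side. The myeloid surface genes Itgam and Cd33 were at 0.93 to 4.76 and 0.50 to 2.12 FPKM in these libraries, Itga2, which encodes CD49b, at 7.79 to 13.3 FPKM, and the T cell receptor complex genes Cd3e and Cd3g at 129.6 to 199 and 449 to 652 FPKM.

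All 4 azurophil genes had the same pattern. They were far above the controls in cytarabine 1 and below the controls in cytarabine 2 and cytarabine 3, while the 3 controls lay close together. For Elane, the cytarabine libraries 1, 2 and 3 gave 81.7, 2.81 and 2.83 FPKM, and the control libraries 1, 2 and 3 gave 8.54, 9.94 and 8.26 FPKM. Cytarabine 1 was 8.22-fold above the highest control, and cytarabine 2 and 3 were 2.94-fold and 2.92-fold below the lowest. Mpo was at 71.1, 3.13 and 2.33 FPKM in the cytarabine libraries and 7.83, 11.0 and 12.3 FPKM in the controls. This placed cytarabine 1 at 5.77-fold the highest control, the smallest such excess of the 4 genes, and cytarabine 3 at 3.37-fold under the lowest control, the largest such deficit. Prtn3, the neighbour of Elane, was at 64.3, 2.90 and 2.74 FPKM in the cytarabine libraries and 7.43, 7.49 and 8.85 FPKM in the controls. Its controls spread least of the 4 genes, with 1.19-fold between highest and lowest. Ctsg, the least abundant of the 4 in every library, was at 32.8, 1.06 and 1.22 FPKM in the cytarabine libraries and 2.202, 3.44 and 4.25 FPKM in the controls. Its controls spread most, at 1.93-fold, and cytarabine 3 was 1.80-fold under the lowest of them. For each gene the groups overlapped, because the controls lay between cytarabine libraries, and within the cytarabine group the highest library was 22.2-fold to 31.0-fold above each of the other two.

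**Figure D1:**
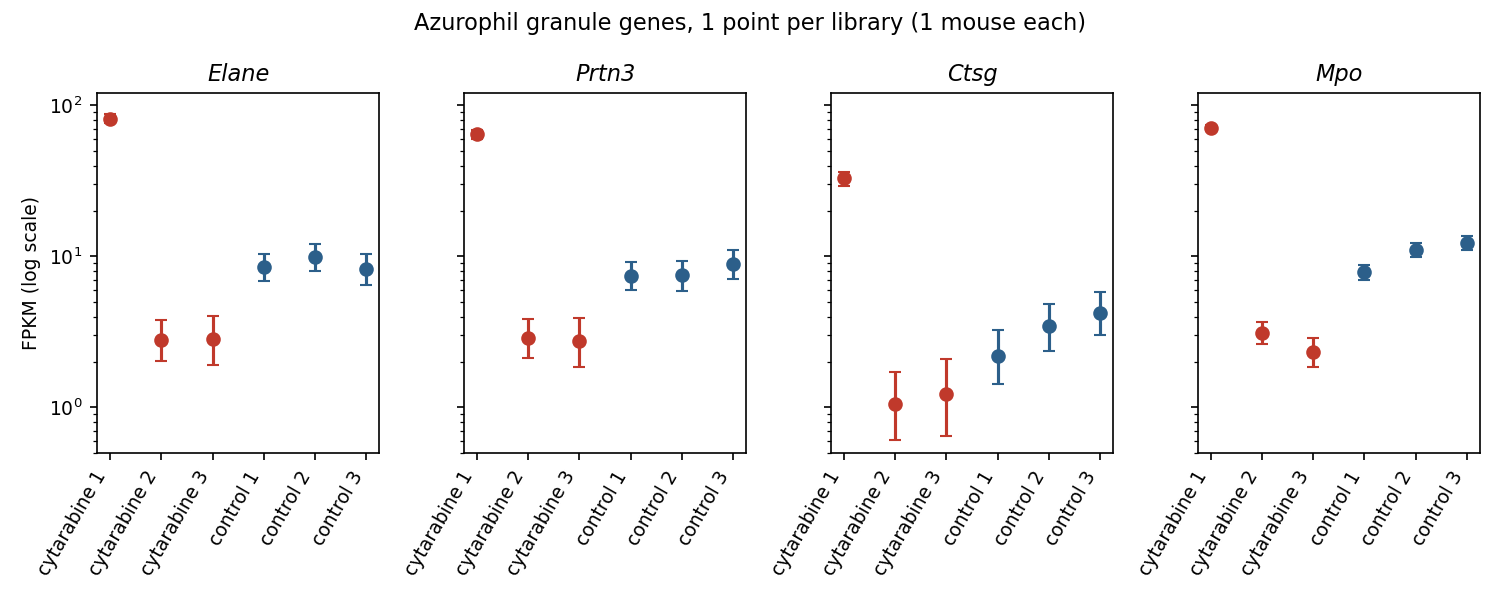
FPKM of Elane, Prtn3, Ctsg and Mpo (log axis) in each library, 1 point per mouse, cytarabine in red and control in blue. Bars are exact Poisson 95% intervals from estimated read numbers and cover counting error only; cytarabine 1 lies above the controls and cytarabine 2 and 3 below them in each panel.

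The reads behind these levels were few in the low libraries. At the inferred depth, Elane rested on about 838 reads in cytarabine 1, 42 in cytarabine 2, 30 in cytarabine 3 and 75 to 96 in the controls, and Ctsg on about 344, 16, 13 and 25 to 39 reads. The exact Poisson 95% interval of Elane in cytarabine 2, 2.02 to 3.80 FPKM, and in cytarabine 3, 1.91 to 4.03 FPKM, lay below that of every control, of which the lowest began at 6.49 FPKM. For Mpo and Prtn3 the intervals of cytarabine 2 and 3 likewise lay below those of the controls. For Ctsg the intervals of cytarabine 2, 0.61 to 1.72 FPKM, and cytarabine 3, 0.65 to 2.09 FPKM, overlapped that of control 1, 1.42 to 3.25 FPKM. These intervals rest on an assumed fragment length and cover counting error only, not the spread between mice.

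The group comparison depended on the summary used. The mean over the 3 cytarabine libraries was 29.1 ± 45.5 FPKM (SD) for Elane, 23.3 ± 35.5 for Prtn3, 11.7 ± 18.3 for Ctsg and 25.5 ± 39.5 for Mpo, above the control means of 8.91 ± 0.90, 7.92 ± 0.80, 3.30 ± 1.03 and 10.4 ± 2.31 FPKM. The medians ran the other way, at 2.83 against 8.54 FPKM for Elane, 2.90 against 7.49 for Prtn3, 1.22 against 3.44 for Ctsg and 3.13 against 11.04 for Mpo. On the log2(FPKM + 1) scale, which understates changes of low genes, the difference cytarabine minus control was 0.11 for Elane, 0.14 for Prtn3, 0.35 for Ctsg and -0.17 for Mpo. The SD over the 3 cytarabine libraries was 2.56, 2.36, 2.30 and 2.48 for the same genes, against 0.13, 0.13, 0.36 and 0.31 over the 3 controls, so each difference was smaller than the spread between cytarabine mice. Without cytarabine 1 the differences were -1.37 for Elane, -1.22 for Prtn3, -0.98 for Ctsg and -1.60 for Mpo. The sign differed between the sides of the colon division as well. Cytarabine 1 was the only cytarabine library on the side with little, so this division repeats its contrast with cytarabine 2 and 3. Among libraries with much colon transcript, cytarabine 2 and 3 minus control 1 was -1.32 for Elane, -1.14 for Prtn3, -0.58 for Ctsg and -1.25 for Mpo. Among those with little, cytarabine 1 minus the mean of control 2 and 3 was 3.04, 2.84, 2.81 and 2.51. The part of colon transcript in these differences was not tested. In bulk RNA such as this, fewer cells that express a gene and less RNA per cell cannot be told apart.

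Few genes moved as far in a single library. Set against the median of the other 5 libraries on the log2 scale, Ctsg, Elane, Mpo and Prtn3 in cytarabine 1 stood 16th, 17th, 19th and 21st from the top of the 11703 genes that averaged 1 FPKM or more, 3.40, 3.16, 3.03 and 2.95 above that median. In cytarabine 3 they were between places 21 (Mpo) and 60 (Ctsg) from the bottom, and in cytarabine 2 between places 65 (Mpo) and 105 (Ctsg). Ranked by FPKM within a library, Elane was gene 1236 of 23284 in cytarabine 1, 6773 to 7399 in the controls, and 10216 and 10333 in cytarabine 2 and 3.

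The proportions among the 4 genes varied far less than their sum. The summed FPKM was 249.9 in cytarabine 1, 9.90 in cytarabine 2, 9.11 in cytarabine 3, and 26.0, 31.9 and 33.7 in control 1, 2 and 3. Elane made up 24.5% to 32.8% of it, Prtn3 23.5% to 30.1%, Mpo 25.5% to 36.6% and Ctsg 8.46% to 13.4%. Ctsg was last in each library, whereas the order of the other 3 changed from library to library: Elane led in cytarabine 1, cytarabine 3 and control 1, and Mpo in cytarabine 2, control 2 and control 3. In cytarabine 2, cytarabine 3 and control 1 the Poisson intervals of Elane, Mpo and Prtn3 overlapped, and these 3 genes could not be ordered there. The interval of Elane also overlapped that of Mpo in control 2 and that of Prtn3 in control 2 and control 3. In cytarabine 1 the intervals of Mpo and Prtn3 overlapped.

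**Figure D2:**
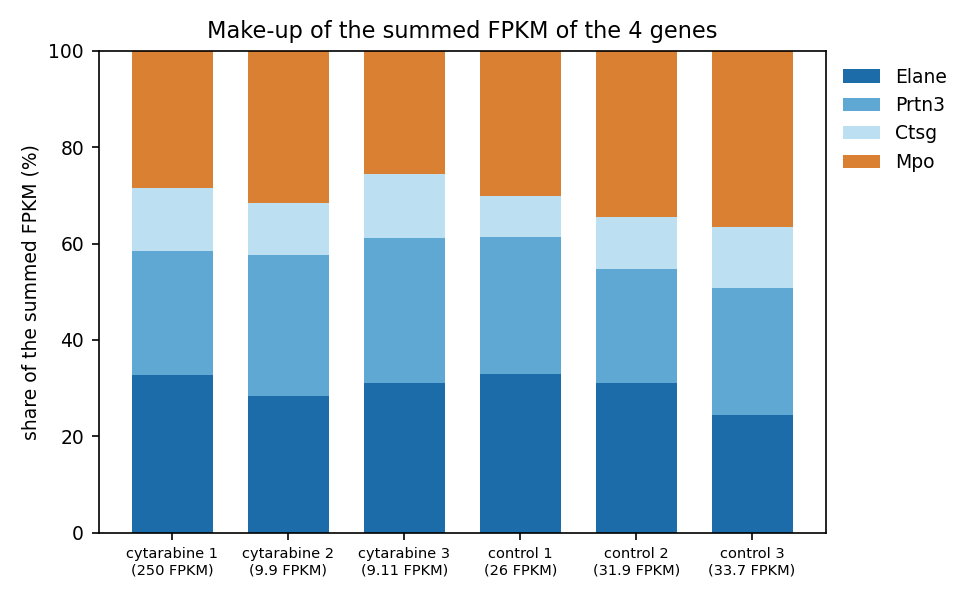
Share of the summed FPKM (%) of the 4 genes held by Elane, Prtn3, Ctsg and Mpo in each library, with the sum under each bar. The sum ranges from 9.11 to 249.9 FPKM while Ctsg stays between 8.46% and 13.4%.

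The neighbours on the chromosomes differed in their patterns. Cfd (complement factor D), a serine protease gene 2637 bases beyond Elane, was at 0.32 FPKM in cytarabine 1, where Elane was highest, had 25.6 and 32.5 FPKM in the other cytarabine libraries, and was at 16.1, 43.8 and 0.85 FPKM in the controls. Lpo (lactoperoxidase), 2014 bases from Mpo, was at 2.43, 32.4 and 23.4 FPKM in the cytarabine libraries and 11.3, 0.030 and 0.13 FPKM in the controls, high in the 3 libraries with much colon transcript. Epx (eosinophil peroxidase), 59586 bases from Mpo, was at 1.19, 0.51 and 0.060 FPKM with cytarabine and 0.59, 1.00 and 0.80 FPKM in controls. At this low level Epx was above the controls in cytarabine 1 and below them in cytarabine 2 and 3, as Mpo was. For Epx the margins in cytarabine 1 and 2 were narrow, 1.19 against 1.00 FPKM and 0.51 against 0.59 FPKM. Around Ctsg, in the cluster of granzyme and mast cell protease genes, Mcpt8, a basophil protease gene 14607 bases away, was highest in cytarabine 1, at 4.71 FPKM, with 1.59 and 1.30 FPKM in the other cytarabine libraries and 2.00, 1.40 and 3.71 FPKM in the controls. Gzmb reached 2.71 FPKM, and Gzmc and Cma1 at most 1.44 and 1.11 FPKM.

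Among all other genes, those most like the 4 were ranked by the root mean square distance of their log2 profile over the 6 libraries, each profile centred on its own mean, from the mean profile of the 4. The members themselves lay at 0.088 (Prtn3) to 0.18 (Ctsg). The nearest other gene was Ms4a3, a membrane protein gene of granulocyte and monocyte progenitors, at a distance of 0.36, with 18.1, 0.85 and 0.83 FPKM in the cytarabine libraries and 1.22, 1.80 and 2.15 FPKM in the controls. Next came Fcnb (ficolin B), at 0.40, a lectin gene of immature granulocytes, with 17.5, 1.42 and 0.96 FPKM against 2.37, 2.64 and 2.63 FPKM. Ly6c2 (0.63) and Trem3 (0.82) are also genes of immature myeloid cells, and Ly6c2 was at 35.0, 6.03 and 4.90 FPKM against 10.7, 15.2 and 16.6 FPKM. Of the other 6 of the nearest 10, 5 are red cell genes, namely the globin genes Hbb-b2 (0.51), Hba-a1 (0.66) and Beta-s (0.76), Alas2 (0.80), the first enzyme of heme synthesis in red cells, and Slc4a1 (0.81), the band 3 anion exchanger. The last is the small nucleolar RNA Snord32a (0.82). Beta-s was at 204, 28.0 and 32.0 FPKM in the cytarabine libraries and 21.6, 44.6 and 20.7 FPKM in the controls, highest in cytarabine 1 and, in cytarabine 2 and 3, within the control range. Hbb-b2, at 37.7, 2.75 and 4.26 FPKM against 8.35, 11.4 and 5.59 FPKM, and Slc4a1, at 3.50, 0.085 and 0.15 FPKM against 1.61, 1.76 and 1.57 FPKM, were below the controls in cytarabine 2 and 3, as the azurophil genes were.

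Genes around the 4 proteins were then counted by role, with limma on log2(FPKM + 1) over the 11703 genes. No gene of the 11703, 0%, passed an adjusted p of 0.05 in this fit, so genes are counted at an unadjusted p under 0.05, at which 1148 genes were lower with cytarabine (9.81%) and 890 higher (7.6%). Every "lower" and "higher" that follows is by this rule, and a list whose share is near those percentages shows nothing of its own. The median difference over all genes tested was -0.0015.

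Of 10 other genes known from promyelocytes, 8 were tested, and none was lower or higher, with a median difference of 0.32. Lower genes of this list numbered 2 without cytarabine 1 and 1 without control 1. Prss57, a further azurophil serine protease gene, was at 1.93, 1.02 and 1.20 FPKM in the cytarabine libraries and 0.98, 0.52 and 0.70 FPKM in the controls. Lyz2 (lysozyme), which macrophages also express, was at 52.8, 113 and 100.4 FPKM against 113, 233 and 100.1 FPKM, lowest in the library where the azurophil genes were highest. Hp (haptoglobin) was at 13.2, 2.50 and 2.62 FPKM against 7.19, 91.4 and 17.2 FPKM. Bpi was listed at 0 in each library. Nkg7 was at 30.8, 15.0 and 18.97 FPKM against 17.0, 17.5 and 14.9 FPKM. Lyz1 was at 4.82, 17.3 and 12.8 FPKM against 13.7, 22.3 and 9.49 FPKM, and Mgst1 at 4.14, 28.0 and 28.0 FPKM against 18.8, 13.2 and 4.12 FPKM. Clec5a was at 0.60, 0.42 and 0.41 FPKM against 0.49, 1.34 and 0.85 FPKM. Of these genes, Ms4a3, Fcnb, Prss57 and Nkg7 were highest in cytarabine 1, and Lyz1, Lyz2, Hp, Mgst1 and Clec5a were not.

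Genes that process, pack or release granule contents numbered 11 tested of 12, with 2 lower and 1 higher and a median of 0.18. Ctsc (cathepsin C), which removes the dipeptide that keeps the granule proteases inactive, was at 84.5, 71.1 and 71.8 FPKM with cytarabine and 84.7, 101 and 94.5 FPKM in controls, a difference of -0.30 (SE 0.10, limma, adjusted p = 0.23). Srgn (serglycin), the proteoglycan that binds these proteases, was higher, at 424, 366 and 329.9 FPKM against 232, 276 and 293 FPKM, a difference of 0.48 (SE 0.13, limma, adjusted p = 0.18). For Ctsc the groups did not overlap by a narrow margin, 84.5 against 84.7 FPKM, and for Srgn every cytarabine library was above every control. Vps13b, a trafficking gene, differed by -0.39 (SE 0.11). The lower genes of this list numbered 1 without cytarabine 2, cytarabine 3, control 2 or control 3, and the higher genes 4 without cytarabine 1 and 2 without control 2 or control 3.

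Of 15 inhibitor genes, 7 were tested, with 1 lower and 1 higher and a median of 0.10. Serpinb6a, an intracellular serpin known to inhibit cathepsin G, was higher in each cytarabine library, at 150.5, 185 and 203 FPKM against 129.7, 109.9 and 112 FPKM, a difference of 0.60 (SE 0.13, limma, adjusted p = 0.15). Slpi, a secreted inhibitor of elastase and cathepsin G, was lower, at 2.62, 2.44 and 3.24 FPKM against 8.17, 4.81 and 3.36 FPKM, a difference of -0.71 (SE 0.29, limma, adjusted p = 0.28). No inhibitor gene was lower without cytarabine 2, cytarabine 3, control 1 or control 2. The same held with equal sums per library, median-of-ratios factors, a pseudocount of 5 or no filter on low FPKM. With a minimum mean of 5 FPKM none was lower either, but Slpi, with a mean of 4.11 FPKM, was not tested there. Higher inhibitor genes numbered 2 without cytarabine 1 or control 1. Serpinb1a, which inhibits all 3 proteases, did not pass, at 15.3, 70.6 and 83.8 FPKM against 42.9, 5.64 and 6.07 FPKM, and was highest in the 3 libraries with much colon transcript.

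All 12 transcription factor genes were tested, with 1 lower and 1 higher and a median of 0.044. Gfi1, a repressor needed for neutrophil development, was at 13.5, 10.2 and 9.80 FPKM with cytarabine and 15.1, 17.3 and 16.6 FPKM in controls, a difference of -0.52 (SE 0.13, limma, adjusted p = 0.18). Myb was at 13.8, 16.7 and 14.5 FPKM against 12.0, 9.23 and 11.6 FPKM, a difference of 0.43 (SE 0.12, limma, adjusted p = 0.20). Higher factor genes numbered 4 without cytarabine 1 and 3 without control 1. In both Gfi1 and Myb each cytarabine library lay on 1 side of each control, unlike the azurophil genes. Cebpe, needed for the passage to later granules, did not pass and was at 2.36, 0.20 and 0.14 FPKM against 1.02, 1.01 and 1.43 FPKM, so cytarabine 1 was above and cytarabine 2 and 3 below the controls, as in the 4 genes. Sfpi1, the gene of PU.1, was at 6.22, 2.76 and 2.78 FPKM against 2.49, 7.72 and 5.69 FPKM, with each cytarabine library within the control range.

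Receptors of stem and progenitor cells did not follow the 4 genes. Kit reached at most 1.59 FPKM and Flt3 at most 0.24 FPKM, and Cd34 was lowest, at 0.41 FPKM, in cytarabine 1, where the azurophil genes were highest. Of 10 receptor genes, 7 were tested, with 2 lower, none higher, and a median of -0.47. Csf3r, the G-CSF receptor, was at 1.23, 0.26 and 0.26 FPKM with cytarabine and 1.65, 3.83 and 3.15 FPKM in controls, a difference of -1.30 (SE 0.36, limma, adjusted p = 0.19). Il6ra differed by -0.70 (SE 0.25). Of these receptors 1 was lower without cytarabine 2, cytarabine 3, control 2 or control 3. With a minimum mean of 5 FPKM no receptor gene was tested, as the highest mean was 3.72 FPKM (Cd34). The 4 genes are called by their granule here, and the stage of the cells that held their RNA was not tested. Of 15 lysosomal enzyme genes, all tested, none was lower and 2 were higher, among them Gla by 0.22 (SE 0.079), with a median of 0.14, but none was higher without cytarabine 2, cytarabine 3, control 1 or control 3.

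Genes of the later granules and of mature neutrophils were mostly lower with cytarabine. Of the 18 tested of 20, 11 were lower with cytarabine, against 9.81% of all genes, and none was higher, with a median difference of -1.21. Retnlg, a resistin-like gene of mature neutrophils, was at 12.4, 4.08 and 3.17 FPKM with cytarabine and 48.3, 68.9 and 66.1 FPKM in controls, a difference of -3.23 (SE 0.45, limma, adjusted p = 0.13). Mmp8, the neutrophil collagenase, was at 1.56, 0.35 and 0.70 FPKM against 5.54, 9.38 and 9.78 FPKM, a difference of -2.32 (SE 0.32, limma, adjusted p = 0.13). Ltf was at 13.2, 3.88 and 3.50 FPKM against 26.0, 42.2 and 39.2 FPKM, and Cd177, a surface protein that binds proteinase 3, at 3.43, 3.38 and 3.87 FPKM against 5.13, 7.12 and 7.69 FPKM. In these 4 genes cytarabine 1 was below each control, and over the 20 later genes it was below each control in 14, within their range in 4 and above each control in 2. Those 2 were Camp, at 123, 7.81 and 8.39 FPKM against 64.0, 98.7 and 95.8 FPKM, and Chi3l3, at 49.0, 16.5 and 13.8 FPKM against 18.9, 29.6 and 38.3 FPKM, and in both cytarabine 2 and 3 were below each control. The list was chosen with values of these libraries known, so its count is not independent evidence, and it was 6 without control 2, 7 without control 3 and 15 without cytarabine 1.

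**Figure D3:**
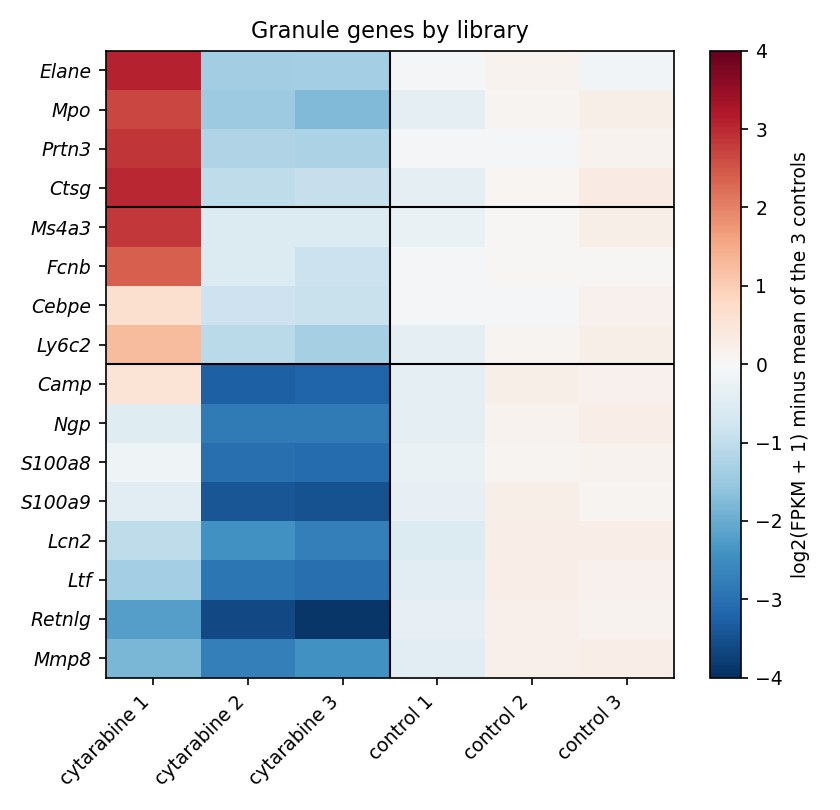
log2(FPKM + 1) minus the mean of the 3 controls for the 4 azurophil genes (top block), other genes of immature myeloid cells (middle) and later granule genes (bottom), 1 column per library. Cytarabine 1 is red for the top genes and blue for Retnlg, Mmp8 and Ltf, and cytarabine 2 and 3 are blue for every gene drawn. The genes below the top block were picked with their values known. Genes that went the other way, such as Prss57, Mgst1 and Mmp9, above each control in cytarabine 2 and 3, are not drawn.

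Set against the later genes, the azurophil genes ordered the libraries by group. The summed FPKM of the 20 later genes was 1551, 289 and 272 in cytarabine 1, 2 and 3 and 1530.3, 2163 and 2135 in control 1, 2 and 3. The summed FPKM of the 4 azurophil genes was 16.1%, 3.42% and 3.36% of that in the cytarabine libraries and 1.70%, 1.47% and 1.58% in the controls, so every cytarabine library was above every control. A ratio within 1 library is the same under any rescaling of that library. The level of Elane relative to Retnlg was 6.61, 0.69 and 0.89 with cytarabine and 0.18, 0.14 and 0.12 in controls, and relative to Ltf it was 6.19, 0.72 and 0.81 against 0.33, 0.24 and 0.21. Relative to S100a8, the later gene with the highest mean, Elane was at 0.128, 0.032 and 0.034 against 0.014, 0.013 and 0.010. In cytarabine 2 and 3 both sums were thus under the controls, the later sum further under. In cytarabine 1 the azurophil sum was above the controls while the later sum was within their range. S100a8 and S100a9 made up most of the later sum in each library, and not every later gene followed it. Mmp9, the gene of gelatinase, was at 47.6, 58.2 and 58.2 FPKM with cytarabine and 46.5, 50.7 and 57.1 FPKM in controls, so cytarabine 2 and 3 were above each control. For 11 of the 18 later genes tested, the ratio of the summed azurophil genes to the gene was higher in each cytarabine library than in each control, a separation seen for 20 of 11330 genes (0.177%) above 0 in each library. Cebpe and Csf3r were among the other 9 genes. These ratios were chosen after the values had been seen and are given as descriptions, with no test.

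**Figure D4:**
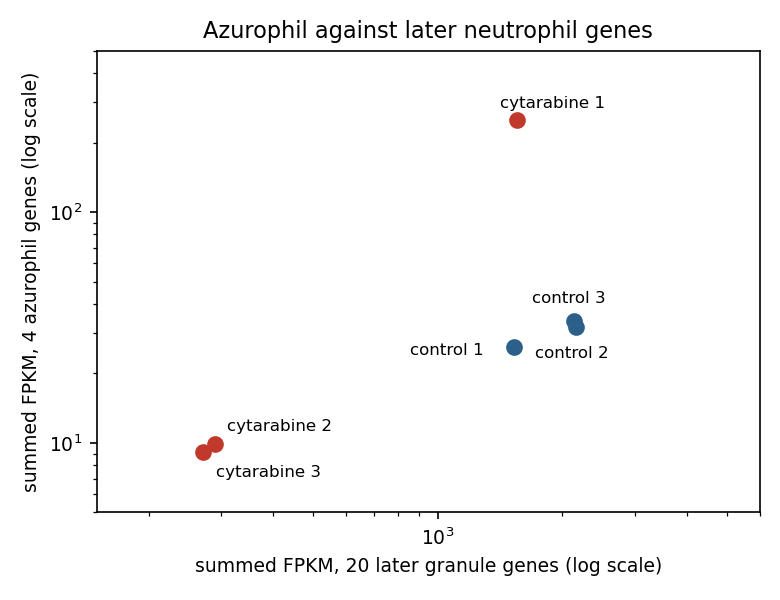
Summed FPKM of the 4 azurophil genes against the summed FPKM of 20 later neutrophil genes, both on log axes, 1 point per mouse, cytarabine in red and control in blue. The azurophil sum is 16.1%, 3.42% and 3.36% of the later sum in the cytarabine libraries and 1.47% to 1.70% in the controls.

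Markers of other blood and tissue cells are given because host cells could be among the sorted cells. In the monocyte list the summed FPKM was 101 to 156 with cytarabine and 106 to 214 in controls, with 1 of 9 tested lower (Cx3cr1) and none higher, and besides Ly6c2 the gene F13a1 was at 1.08 to 2.24 and 1.77 to 4.08 FPKM. Macrophage genes summed to 20.6 to 79.0 and 14.8 to 156 FPKM, with none of 8 called, and C1qa and C1qb were at 1.83 and 2.14 FPKM in cytarabine 1. Basophil and mast cell genes summed to 438 to 492 and 340.1 to 449 FPKM, nearly all of it Cpa3, which was the 1 gene higher of 4 tested. Mcpt8 and Prss34 were highest in cytarabine 1, at 4.71 and 4.30 FPKM. Eosinophil genes summed to 2.09 to 17.1 and 16.4 to 21.5 FPKM with none of 3 called, where Prg2 was at 0.47 to 9.41 and 8.99 to 11.7 FPKM and Prg3 at most 0.58 FPKM.

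Red cell genes summed to 321 to 368 FPKM with cytarabine and 51.5 to 183 FPKM in controls, with none of 5 called, but Car1 and Car2, which colon epithelium also expresses, made up most of it in cytarabine 2, cytarabine 3 and control 1. Hba-a1 was at 95.3, 12.6 and 17.6 FPKM against 16.3, 23.8 and 13.8 FPKM, and Klf1, the erythroid transcription factor, was at 2.35, 0.24 and 0.22 FPKM against 0.74, 0.73 and 0.85 FPKM. Platelet genes summed to 4.47 to 7.97 and 2.23 to 4.20 FPKM with none called of the 1 tested (Pf4), and Ppbp was at most 0.78 FPKM. B cell genes summed to 6.34 to 14.4 and 6.35 to 7.09 FPKM, with Cd79b the 1 higher of 3 tested and Cd79a at most 5.88 FPKM. NK cell genes summed to 8.11 to 17.3 and 3.78 to 6.47 FPKM, with Klrb1c and Gzma higher of 3 tested, while Ncr1 and Eomes were at most 0.38 and 0.55 FPKM. Colon genes summed to 194, 2721 and 3027 FPKM with cytarabine and 1382, 12.2 and 12.6 FPKM in controls, with none of 6 called, and Fcgbp reached 29.4 FPKM. Heart genes summed to 7.21 to 659 and 51.1 to 2422 FPKM with none of 6 called, and Nppa and Myh6 were highest in control 1, at 1479.7 and 136 FPKM. Hba-a1, Klf1, Mcpt8 and Prss34 were thus highest in the library with the most azurophil transcript. The NK cell genes Gzma, Prf1 and Klrb1c were highest there too, at 7.49, 3.79 and 5.07 FPKM, but Ncr1 and Klra8 were not. The part of these genes in the result was not tested.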

How the data were processed

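RNA was measured in 6 libraries, 3 cytarabine and 3 control, each from a different mouse. The authors prepared TruSeq stranded mRNA libraries, sequenced 75-base single-end reads, mapped them to mm10 with TopHat2 2.0.13, Bowtie2 2.2.3 and SAMtools 0.1.19, and the deposited FPKM come from Cufflinks 2.2.1, as 1 value a gene. The annotation and options of Cufflinks are not given in the sources used here. FPKM already divides by length and library size, and no counts were used.

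Here the values were put on a log2(FPKM + 1) scale. The 11703 of 23284 genes that averaged 1 FPKM or more entered a two-sided limma fit (version 3.58.1, R 4.3.3) with trended eBayes, and p-values were adjusted by Benjamini-Hochberg. Each p-value sets the group difference against the spread between mice within the groups, which eBayes draws toward its trend over all genes. The fit was first tested on simulated data. Depth was inferred from the low FPKM of 3607 genes with 1 transcript at an assumed fragment length of 200 bases, where 69.3% to 73.1% of values fell within 0.1 of a whole read. Intervals are exact Poisson 95% intervals. Positions are from GENCODE on GRCm38 and promoters from RefSeq on GRCm38.p6, with all 4 genes matched. Plots were made in Python 3.11.15 (matplotlib 3.10.9).

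The members and lists were chosen with earlier results of these data known, so the 4 members have no p. Named in the text are the members, up to 4 genes in each direction of each list of granule-related genes with the smallest p under 0.05 or, with none, the 2 with the highest mean FPKM, the first 2 of each cell marker list, the 10 genes nearest in profile, and the chromosome neighbours. Prss57, Nkg7, Bpi, Lyz1, Mgst1, Clec5a, Camp, Chi3l3, Mmp9, S100a9, Serpinb1a, Cebpe, Sfpi1, Kit, Flt3, Cd34, S100a8, Klf1, Car1, Car2, Cpa3 and the cell surface genes were added after values were seen. Gzma, Klrb1c, Prf1 and Klra8 were likewise added. In the lists, Hbb-bt and Muc2 were not matched. Some genes that this rule names are not reported here. Alternatives were other pseudocounts, filters and scalings, eBayes without trend, the replicate block, leaving out each library, and the 2 sides of the colon division.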

Additional observations from a re-analysis of the deposited data

How the results depend on the processing

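The 4 differences of the members had a sign that depended on the setting. Elane was -0.019 with a pseudocount of 0.1 and Mpo 0.12 with a pseudocount of 5, and under quantile normalization Elane was -0.19 and Prtn3 -0.15. Leaving out each library in turn gave -1.37 to 0.85 for Elane, -1.60 to 0.62 for Mpo, -1.22 to 0.84 for Prtn3 and -0.98 to 1.04 for Ctsg. Here the lowest values came without cytarabine 1, and Mpo turned to 0.46 without cytarabine 2 and 0.62 without cytarabine 3. Among libraries with much colon transcript Elane was -1.32, Prtn3 -1.14 and Ctsg -0.58, and among those with little, Elane was 3.04, Mpo 2.51, Prtn3 2.84 and Ctsg 2.81. The colon division also separates cytarabine 1 from cytarabine 2 and 3, so it repeats that contrast. The cause was not tested.

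Genes lower with cytarabine numbered 582 to 2049 and genes higher 593 to 2062 when each library was left out, with 0 to 6 at an adjusted p under 0.05, and 6 to 15 of the later neutrophil genes were lower. Genes at an adjusted p under 0.05 numbered 1 with a pseudocount of 0.1 and 2 without the trend, and 7 later genes were lower with a minimum mean of 5 FPKM, where fewer genes were tested. With the replicate block, 515 genes were lower and 479 higher, and 5 later genes were lower. The block left 0 lower inhibitor genes, 0 higher lysosomal genes, 0 higher factor genes, 0 lower receptor genes and 1 lower processing gene. Same-numbered libraries came from different mice, and their deviations from the group means correlated at -0.71, -0.25 and -0.59. Each such pair fell on opposite sides of the colon division, so these correlations cannot tell whether the pair shared a batch. Over all alternatives and left-out libraries, the main results stayed near their value 81 times, moved 22 times and changed sign 13 times. The other list counts stayed 144 times and moved 51 times. This rule was loose for the members: a difference counted as near if its sign held and it shifted by less than the larger group SD, 2.30 to 2.56. Mpo at -1.60 without cytarabine 1 thus counted as near -0.17. The replicate block cannot change the member differences, so those always counted as near. Rescaling shifted the median of all genes to between -0.059 and 0.029. Depth limits the members most in cytarabine 2 and 3, where Ctsg rested on about 16 and 13 reads.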
